A study of Mus musculus with 4 samples.

Results

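Catalase (Cat), glutathione peroxidase 2 (Gpx2), glutathione peroxidase 4 (Gpx4) and glutathione reductase (Gsr) were examined for binding of Nrf2 in mouse esophagus. They were chosen by name as genes of peroxide removal, and each had a row in the deposited table, which made them 4 of its 1940 genes. Nrf2 was profiled by chromatin immunoprecipitation followed by sequencing (ChIP-seq) in C57BL/6 mice of 3 genotypes, namely wild-type mice, mice lacking Nrf2 (Nrf2KO) and mice lacking Keap1 (Keap1KO). Each genotype had 1 ChIP library made with the same Nrf2 antibody (Santa Cruz, sc-13032), and a pooled input library was not analysed here. The Nrf2KO library is the background of the antibody in tissue without its target, and the Keap1KO library shows the signal in tissue without the protein that marks Nrf2 for degradation. The sources used here do not state the age of the animals, how many went into a library, the knockout alleles or whether these act in all cells. The table holds no expression values, so the labelled tissue was not checked against marker genes.

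Nrf2 is a transcription factor that pairs with small Maf proteins on antioxidant response elements near genes of redox defence and detoxification. Keap1 keeps it low by handing it to a ubiquitin ligase, and oxidants or electrophiles block that step. The 4 enzymes serve the removal of peroxides in different ways. Catalase breaks down hydrogen peroxide in peroxisomes without a thiol. Gpx2 and Gpx4 are selenoenzymes that reduce peroxides with glutathione, Gpx2 being known from the epithelium of the gut and Gpx4 for reducing lipid peroxides within membranes. Glutathione reductase returns the oxidised glutathione to its reduced form with NADPH.

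Each gene had antibody signal that was higher in Keap1KO than in both other libraries. Values are peak heights in the deposited unit, which is not named in the table. A locus here is 1 called interval or several that are listed under exactly the same genes. The table was resolved into 1460 of them, so that an interval shared by neighbouring genes counts once. Keap1KO was higher than wild-type at 1442 of the 1460 loci and higher than Nrf2KO at 1445. The same pattern at all 4 genes is therefore no result about them. All 4 loci had an interval called in Keap1KO, and none had one called in Nrf2KO or in wild-type. Over all loci, the share called was 99.2% for Keap1KO, 3.77% for wild-type and 0.0% for Nrf2KO, so a call in Keap1KO alone is the usual state of a locus in this table. The table lists loci for their calls, which selects Keap1KO heights upwards and the heights of uncalled libraries downwards. With 1 library per genotype there is no replicate error, no test was made between genotypes, and the depth of the libraries is unknown. The libraries are of esophagus tissue, so more cells with bound Nrf2 and more binding per cell cannot be told apart.

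The called intervals lay at different places relative to the gene starts. Coordinates are those of mm10, and 95.5% of the 1727 intervals of the table, all 5 at these genes among them, sat on multiples of 16 bp, so positions are no finer than that step. The Gpx2 interval was at position 76795488 of chromosome 12, 66 bp into the gene (GeneID 14776, minus strand, 76792335 to 76795554). Gsr had 2 intervals on chromosome 8, at 33653360 and 33653952, which are 122 and 714 bp into the gene (GeneID 14782, plus strand, 33653238 to 33698162). The Cat interval was at 103480416 of chromosome 2, 4737 bp into the gene (GeneID 12359, minus strand, 103453904 to 103485153), which is 15.2% of the gene's length. Gpx2, Cat and Gsr intervals were thus inside their genes, and exons and introns were not told apart because only gene spans were used here.

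The Gpx4 interval was at 80052160 of chromosome 10. The table lists it as upstream, 1350 bp before the gene start (GeneID 625249, plus strand, 80053510 to 80056439). The RefSeq table of GRCm38.p6, the same build, gives Gpx4 a longer span that begins at 80047166, and within that span the same position lies 4994 bp past the start. RefSeq also gives Gpx4 starts at 80053565, 80053659 and 80054011, and the interval lies before each of them, 1405 bp from the nearest. The label upstream for Gpx4 therefore depends on which start is used. For the other 3 genes the gene ends were the same in both tables.

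**Figure D1:**
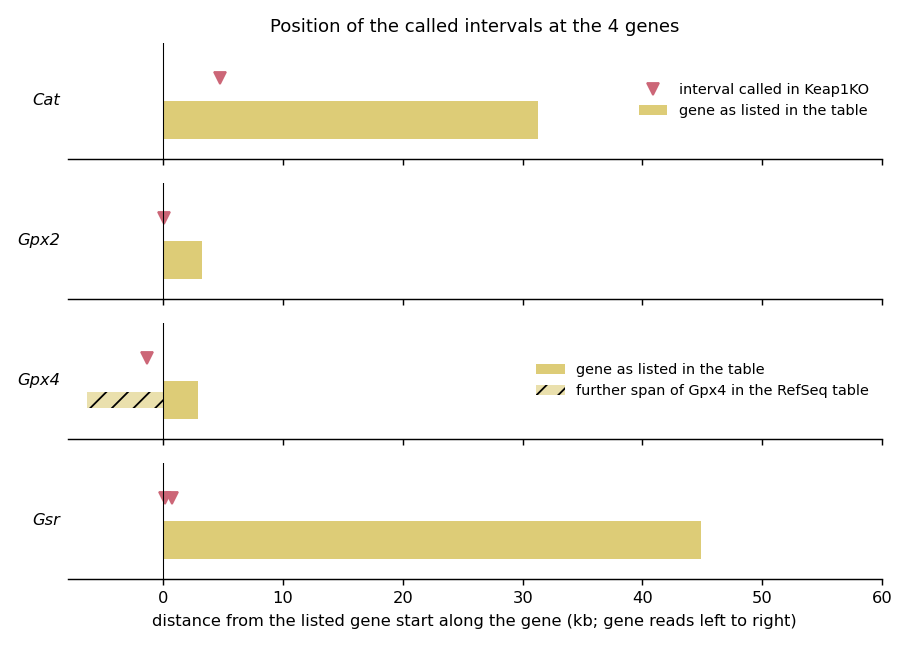
Position of each called interval (triangles, all called in Keap1KO) on a common axis of distance from the listed gene start, in kb. Bars are the genes to scale as the deposited table lists them, and the hatched bar is the further span of Gpx4 in RefSeq. Gpx2 and Gsr intervals sit at the start, the Cat interval lies 4737 bp inside and the Gpx4 interval 1350 bp before the listed start.

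The sequence before the start is shown for Gpx2, whose interval lay nearest to its start, and for Cat, whose interval was the tallest and lay away from it. Both are the 250 bases upstream of the RefSeq start in GRCm38.p6, on the minus strand, read 5′ to 3′. The windows are chr12:76795555-76795804 for Gpx2 and chr2:103485154-103485403 for Cat. Capitals mark a match, on the opposite strand, to the loose motif TGANNNNGC.
Gpx2: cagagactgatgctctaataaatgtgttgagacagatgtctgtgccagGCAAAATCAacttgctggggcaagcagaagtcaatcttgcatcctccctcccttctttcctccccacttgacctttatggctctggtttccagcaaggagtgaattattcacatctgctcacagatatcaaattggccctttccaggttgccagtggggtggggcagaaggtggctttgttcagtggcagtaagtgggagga
Cat: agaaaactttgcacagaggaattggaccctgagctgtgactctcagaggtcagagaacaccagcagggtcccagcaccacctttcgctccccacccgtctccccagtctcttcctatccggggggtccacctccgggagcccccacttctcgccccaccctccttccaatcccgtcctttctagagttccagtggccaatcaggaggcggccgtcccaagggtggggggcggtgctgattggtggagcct

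The core of the antioxidant response element, TGACNNNGC, was searched on both strands, and so was TGANNNNGC, which contains every match to it. The core was found in neither window, nor in any of the 4 windows that RefSeq gives for Gpx4. Of all 32851 such promoter windows in mouse, 10.2% held the core, and of the 168 windows in which a listed interval position fell (counting also the first 50 bases of the gene), 33.3% did. The loose motif matched once in Gpx2 (TGATTTTGC read on the opposite strand), 194 to 202 bases before the start, and matched 0 times in Cat. It was present in 35.2% of all windows and in 54.2% of the 168 in which a listed interval position fell. None of the windows of these genes contained the interval position itself. The Gpx2 interval fell 66 bp past the start, just beyond a window that reaches 50 bases into the gene, and sequence at the other positions was not used here. A match is a run of letters and not a bound site, and its absence says only that these letters are not in this window.

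Catalase had the tallest peak of the 4. Its height was 3 in Nrf2KO, 9 in wild-type and 71 in Keap1KO. Keap1KO stood far above both other libraries, and wild-type stood above Nrf2KO. On the scale of log2(height + 1), used for all folds here although it shrinks the change of low loci, Keap1KO was 7.20-fold above wild-type (log2 ratio 2.85) and 18-fold above Nrf2KO (4.17). Wild-type was 2.50-fold above Nrf2KO (1.32), from a difference of 6 in height. In Keap1KO, 15 of the 1460 loci were higher than Cat. Among the 823 loci that lay more than 1 kb past the nearest listed gene start, 2 were higher.

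Gpx2 was low in both libraries other than Keap1KO. Its height was 3 in Nrf2KO, 3 in wild-type and 26 in Keap1KO. Wild-type equalled the knockout background, so the ratio of wild-type to Nrf2KO was 1.00, and Keap1KO was 6.75-fold above each (log2 ratio 2.75). The wild-type height of Gpx2 was lower than at 1090 of the 1460 loci, whereas its Keap1KO height was above 80.6% of them. The ratio of Keap1KO to wild-type was larger at 107 loci.

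The Gpx4 peak stood on a higher background. Its height was 8 in Nrf2KO, 10 in wild-type and 28 in Keap1KO. The Nrf2KO height, the signal of the antibody without Nrf2, was above that of 80.8% of loci, and those of Cat and Gpx2 were above 22.4%. Keap1KO was 2.64-fold above wild-type (log2 ratio 1.40) and 3.22-fold above Nrf2KO (1.69), the smallest of the 4 genes in both comparisons. The ratio of Keap1KO to wild-type was larger at 1013 of the 1460 loci. Wild-type was 1.22-fold above Nrf2KO (0.29), a difference of 2 in height.

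Gsr carried 2 regions, 592 bp apart, whose heights the table gives as a mean. That mean was 3.5 in Nrf2KO, 5.5 in wild-type and 27 in Keap1KO. The table also gives the highest single region of the gene, 29, and names Keap1KO as its library, which by the mean leaves 25 for the other, so both regions had signal there. Which of the 2 positions was the higher is not shown. Keap1KO was 4.31-fold above wild-type (log2 ratio 2.11) and 6.22-fold above Nrf2KO (2.64). Wild-type was 1.44-fold above Nrf2KO (0.53), again a difference of 2 in height.

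**Figure D2:**
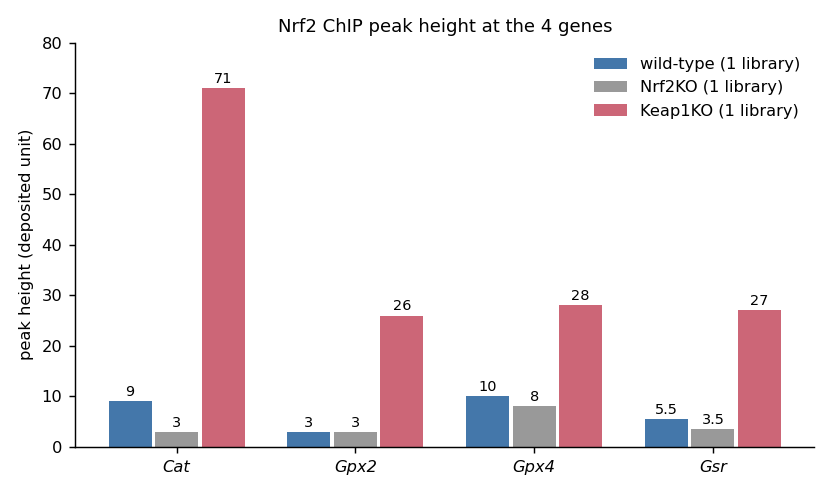
Peak height, in the deposited unit, at each of the 4 genes in each library. Each bar is 1 library, so there are no error bars. The Keap1KO bar of Cat reaches 71, those of Gpx2, Gsr and Gpx4 lie between 26 and 28, and no wild-type bar exceeds 10.

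In Keap1KO the order of heights was Cat (71), Gpx4 (28), Gsr (27) and Gpx2 (26). The Gsr value is a mean over 2 regions, of heights 29 and 25. The taller region stands above the Gpx4 height and the other below that of Gpx2, so the place of Gsr depends on that mean. Cat stood apart, and the other 3 were each 1 unit from the next, a gap whose size against replicate spread is not known. In wild-type the order was Gpx4 (10), Cat (9), Gsr (5.5) and Gpx2 (3). The genes that were alike in Keap1KO thus ranged from 3 to 10 in wild-type and from 3 to 8 in Nrf2KO, so their ratios differed through the heights in those libraries.

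Against wild-type, Keap1KO was at least 2-fold higher at all 4 loci. That rule was met by 88.0% of all loci, so the count is near the background and is no result about these genes. Their median log2 ratio was 2.43 (range 1.40 to 2.85), beside 1.74 over all 1460 loci (quartiles 1.30 and 2.20). Cat and Gpx2 lay above the upper quartile, Gsr below it and Gpx4 below the median.

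Against Nrf2KO, Keap1KO was also at least 2-fold higher at all 4 loci, where 85.3% of all loci were. The median log2 ratio was 2.70 (range 1.69 to 4.17), beside 1.91 over all loci (quartiles 1.29 and 2.54). The Cat ratio was exceeded at 25 loci, and that of Gpx4 at 864. This comparison and the one with wild-type share the Keap1KO library, and the comparison that follows shares a library with each.

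The signal in wild-type reached 2-fold over Nrf2KO at 1 of the 4, Cat, and 18.8% of all loci met that rule. The median log2 ratio was 0.41 (range 0.00 to 1.32), beside 0.19 over all loci (quartiles −0.35 and 0.74). Wild-type was higher by any amount at Cat, Gpx4 and Gsr and equal at Gpx2, and 53.8% of all loci were higher. With wild-type heights multiplied by 0.8, which sets their median equal to that of Nrf2KO over loci not called in wild-type, Gpx4 became equal (log2 ratio 0.00) and Gpx2 lower (−0.23), while Cat (1.04) and Gsr (0.26) remained above Nrf2KO. The Cat ratio was exceeded at 127 loci. With a pseudocount of 5 in place of 1 it fell below 2-fold, and then 0 of the 4 met the rule.

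**Figure D3:**
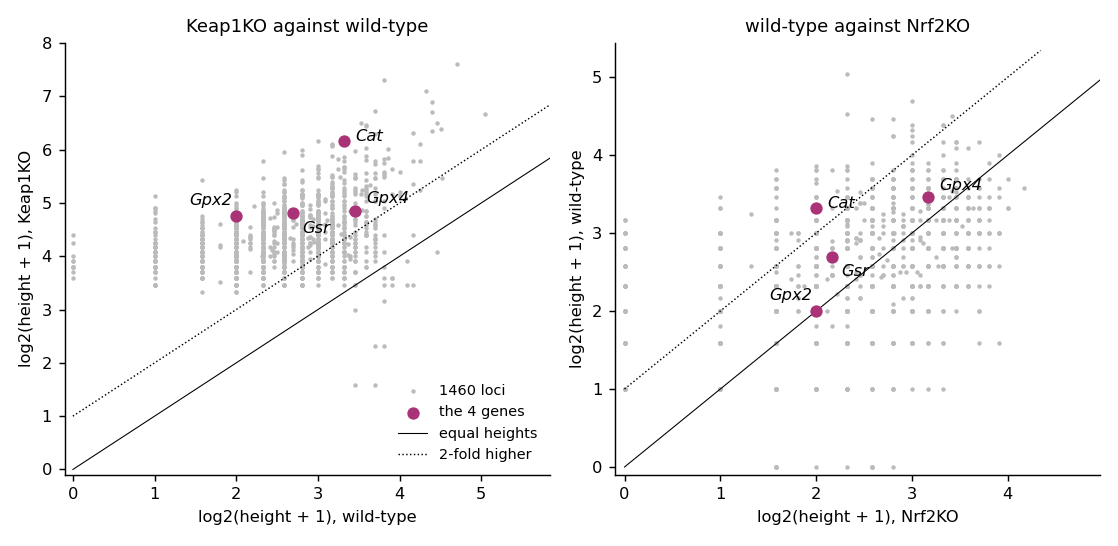
Heights as log2(height + 1) in Keap1KO against wild-type (left) and in wild-type against Nrf2KO (right). Grey points are the 1460 loci, the solid line marks equal heights and the dotted line 2-fold. All 4 genes lie above the 2-fold line on the left, Gpx4 nearest to it, and Cat is above it on the right while Gpx2 sits on the line of equal heights.

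No interval was called in wild-type at these genes, although Cat and Gpx4 had wild-type heights above those of 84.7% and 89.7% of loci. The 55 loci called in wild-type had heights there from 6.50 to 32, with a median of 13. Of the 40 that held 1 region, 5 had a height of 10 or less and 0 had a height of 9 or less. Gpx4, at 10, thus reached the low end of these called loci, and Cat, at 9, stayed 1 unit under it. Among the 1405 loci not called in wild-type, 170 had at least the height of Cat and 100 at least that of Gpx4.

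Signal near gene starts differs from signal elsewhere in this table, and the 4 genes fall on both sides. Over the 454 loci within 1 kb of a listed start, the median Nrf2KO height was 7.0, and it was 4.0 over those more than 1 kb past a start and over those more than 1 kb upstream of one. The shares with a Keap1KO height 2-fold over Nrf2KO or more were 66.1%, 94.0% and 93.4%. Gpx2 and Gsr, within 1 kb, had Nrf2KO heights of 3 and 3.5, under the median of their class. Gpx4, listed upstream, had 8, above the median of its class. Cat, past the start, had 3. In Keap1KO, 79 of the 454 loci near a start were higher than Gpx2 and 73 higher than Gsr, and 34 of the 183 upstream loci were higher than Gpx4.

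Gpx2 and Gpx4 shared their intervals with a neighbouring gene. The Gpx2 interval is also listed for Rab15, a small GTPase, and lies 2475 bp beyond the end of that gene. Rab15 has a further locus 14512 bp away, with 3 in Nrf2KO, 9 in wild-type and 22 in Keap1KO, where wild-type was above Nrf2KO as it was not at the Gpx2 interval. The Gpx4 interval is also listed for Sbno2, 4854 bp beyond its end. The further locus of Sbno2, 19040 bp away, had 4 in Nrf2KO, 7 in wild-type and 21 in Keap1KO. The table assigns these intervals by position, so they cannot be given to one gene of a pair. Cat and Gsr intervals are listed under no other gene.

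A list of 40 genes of peroxide and thiol redox metabolism places the 4 among related enzymes. It was drawn up with earlier results of these data known, and it contains the 4 genes. A locus was present for 14 of the 40 genes (35.0%) and for 10 of the 36 others (27.8%). In the RefSeq table there are 21900 protein-coding genes, of which 7.67% had a row. By the rule of 2-fold, the signal in Keap1KO exceeded that in wild-type at 13 of the 14 and that in Nrf2KO at 14, and wild-type exceeded Nrf2KO at 6, beside 88.0%, 85.3% and 18.8% of all loci. Median log2 ratios over the 14 were 0.67 (wild-type to Nrf2KO), 2.23 (Keap1KO to wild-type) and 3.14 (Keap1KO to Nrf2KO).

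The glutathione peroxidase family had a locus at 2 of 8 genes, Gpx2 and Gpx4. No interval was listed for Gpx1, the broadly expressed cytosolic form, for Gpx3, the secreted plasma form, or for Gpx5, Gpx6, Gpx7 and Gpx8. Of the catalase and peroxisome group, catalase had a locus, and the peroxide-forming oxidases Hao1 and Dao and the import factors Pex5 and Pex14 had none. The 3 genes of selenoprotein synthesis, Secisbp2, Sephs2 and Eefsec, and the 4 glutaredoxins also had none. A gene without a row had no interval listed in or near it, which does not show that Nrf2 was absent there.

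Gsr, which returns oxidised glutathione to its reduced form, was grouped with Gclc, Gclm and Gss, the genes that make glutathione. All 4 of that group had a locus, beside 7.67% of protein-coding genes with a row. For Gsr this was known when the genes were chosen, and the whole list was drawn up with earlier results of these data known. Gclc, the catalytic subunit of glutamate-cysteine ligase, had 4 in Nrf2KO, 13.5 in wild-type and 56.5 in Keap1KO, as means over 2 regions. Gclm, its modifier subunit, had 2, 5 and 28 in the same order. Gss, glutathione synthetase, had 6.33, 4.67 and 18 at the taller of its 2 loci, as means over 3 regions. Gsr, at 27 in Keap1KO, was thus near Gclm and between Gss and Gclc. Wild-type exceeded Nrf2KO by the rule of 2-fold at Gclc and Gclm, and at Gsr and Gss it did not.

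The thiol peroxidases and their partners included the tallest loci of the list. A locus was present at 4 of 7 genes of peroxiredoxins and sulfiredoxin, at 2 of 5 of thioredoxins and their reductases and at 1 of 3 superoxide dismutases. Among the 14 genes ranked by Keap1KO height, Cat was at rank 5, after Txn1 (194), Srxn1 (158), Prdx1 (103) and Txnrd1 (77). Gpx4, Gsr and Gpx2 were at ranks 9, 10 and 11, with Gclm tied with Gpx4 at 28. The heights ranked for Txnrd1, Gclc, Gsr, Gss and Sod1 are means over several regions, and the others are of single regions. Of the peroxiredoxins, which reduce peroxides through a cysteine, Prdx6 had 3 in Nrf2KO, 6 in wild-type and 31 in Keap1KO. Prdx2 had 4, 3 and 17 in the same order, and its interval is also listed under Junb. The loci of Srxn1, Prdx1, Txnrd1 and Sod1 are likewise shared, with Scrt2, AV051173, Eid3 and Scaf4 in that order. Sod1, the cytosolic superoxide dismutase that forms hydrogen peroxide, had 7, 8 and 16 and was the 1 gene of the 14 with Keap1KO less than 2-fold above wild-type (1.89-fold). An interval was called in wild-type at Txn1, Prdx1, Txnrd1 and Gclc and at none of the other 10, beside 3.77% of all loci.

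**Figure D4:**
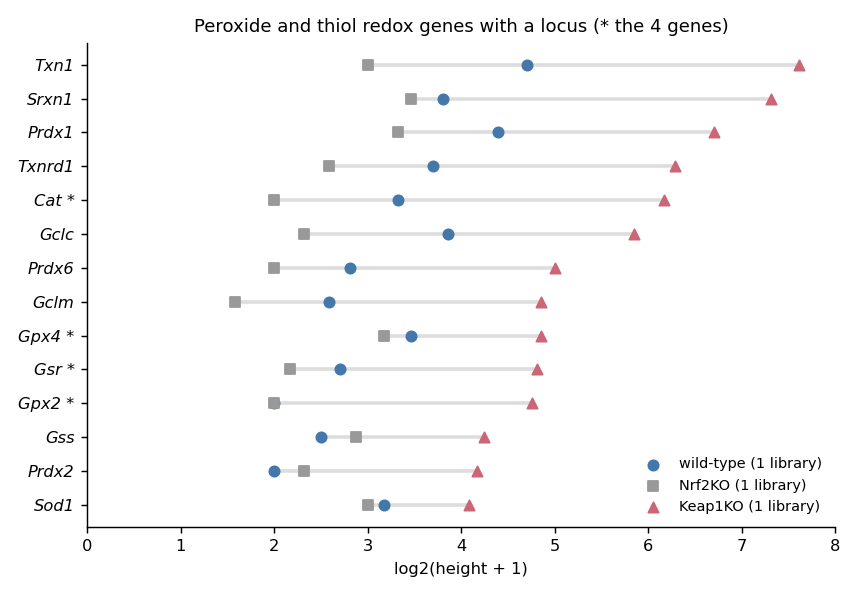
Heights as log2(height + 1) in the 3 libraries at the 14 listed genes with a locus, ordered by Keap1KO height, with Cat, Gpx2, Gpx4 and Gsr starred. Each symbol is 1 library, and at Gpx2 the wild-type circle is hidden behind the Nrf2KO square because both are 3. Cat is at rank 5 from the top, and the other starred genes form a run between Gclm and Gss.

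The loci most like each gene were found by Euclidean distance of log2(height + 1) over the 3 libraries, a measure that rests on 3 values per locus. For Cat these were B230314M03Rik (distance 0.33, with 3, 8 and 58 in Nrf2KO, wild-type and Keap1KO), Arc (0.45, with 4, 9 and 57) and Gsta4, a glutathione transferase (0.45, with 2, 8 and 67). For Gpx2 they were Gtf2f2 and the locus of Rpl19 and Stac2 (0.054 each, with 3, 3 and 25) and Erc2 (0.15). For Gpx4 they were the locus of 2810459M11Rik and Spata3 and that of Slc22a4, an organic cation transporter (0.17 each, with 8, 9 and 30), and Vti1a (0.21). For Gsr they were Ugdh, which makes UDP-glucuronate for conjugation (0.12, with 3.5, 6 and 26), Eri3 and the locus of Gm7020 and Myl4 (0.19 each). Cat had its closest locus farther off than the other 3 genes did. Between the 4 genes themselves the distance was smallest for Gpx2 and Gsr (0.72) and largest for Cat and Gpx2 (1.94).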

How the data were processed

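The submitters' processing notes name the aligner BWA, the peak caller MACS2 2.1.0 and the build mm10, without parameters. How deeply each library was sequenced, and whether libraries were scaled to each other, is not given in the sources used here. Per the file headers, the deposited signal is an average peak height per gene over its active regions (called intervals merged between libraries), beside a flag for a called interval and the highest single region. In the 1681 genes with 1 active region, 100% of heights were whole numbers.

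The listed distance, added to the gene start along its strand, gave the position of an interval. Within a gene, the closest of its intervals were joined until they matched its number of active regions (1727 intervals, 1684 regions). Least squares over the gene means then gave the heights, with residuals of at most 0.00186. Regions listed under exactly the same genes were kept as 1 locus, which gave 1460 loci. The solver was tested on simulated heights. Ratios are log2 with a pseudocount of 1, and 2-fold is a rule of size. No test between genotypes was possible. Motif counts used RefSeq promoters of GRCm38.p6, which had windows for 3 of the 4 genes. The genes, the list of 40 and the rules were chosen with earlier results of these data known. Not every gene of the list is reported here by name. The named genes are the 4, the listed genes with a locus and those sharing an interval with any of these. Some listed genes without a locus are named too. Also named are the 3 loci nearest in pattern to each gene and the nearest other loci of Cat and Gsr. Python 3.11.15, numpy 2.4.6, pandas 2.3.3 and scipy 1.17.1 were used.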

Additional observations from a re-analysis of the deposited data

How the results depend on the processing

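The counts of the 4 genes at least 2-fold higher stayed at 4 of 4 for Keap1KO over wild-type and over Nrf2KO under each pseudocount tried, and for Keap1KO over wild-type also with wild-type scaled to Nrf2KO. For wild-type over Nrf2KO the count of 1 went to 0 with a pseudocount of 5. Calls in Keap1KO stayed at 4 with heights of at least 18 and with any height of at least 12 taken as a call. No ratio of the 4 genes went from higher to lower, but for wild-type over Nrf2KO the scaling of wild-type took Gpx4 from 0.29 to 0.00 and Gpx2 from 0.00 to −0.23 (log2). By a margin of 1.5-fold, 4 of their values under an alternative moved and 28 did not, the 4 being those with a pseudocount of 5, which shrinks ratios by construction. They were Gpx2 over wild-type (log2 1.95), and Cat (3.25), Gpx2 (1.95) and Gsr (1.91) over Nrf2KO.

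The share of all loci at least 2-fold higher moved more. For Keap1KO over wild-type, 88.0% became 72.5% with a pseudocount of 5, 93.6% with wild-type scaled, 86.2% at the taller loci (mean height over the libraries at or above its median), 76.2% at loci near a start (1 kb) and 93.3% at the rest. For wild-type over Nrf2KO, 18.8% became 3.97%, 11.1%, 15.6%, 8.15% and 23.6% under the same 5. For Keap1KO over Nrf2KO, 85.3% became 73.2% with a pseudocount of 5, 83.3% with 1 value per gene, 82.4% at the taller loci, 66.1% near a start and 93.9% at the rest. The cause of these shifts was not tested beyond the shrinkage by the pseudocount. The splits at 1 kb were chosen after seeing the data, in place of a planned one on the side of most of the 4 genes, which was not run because 2 lay on each side. Scaling of wild-type does not enter Keap1KO over Nrf2KO. No paired analysis was possible because there is 1 library per genotype. The unknown depth limits every ratio between libraries.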

Other observations

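The nearest other listed interval was far from Cat and closer to the other genes. For Cat it was 98016 bp away, at A930006I01Rik, with heights of 2 in Nrf2KO, 5 in wild-type and 13 in Keap1KO. For Gsr it was 11312 bp away, at Ubxn8, with 10, 5 and 24, a locus where Nrf2KO was above wild-type, whereas at Gsr wild-type was above Nrf2KO. These neighbours were chosen by distance after the values were seen.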
